A study of Drosophila melanogaster with 3 samples.

Results

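Of the 3206 reproducible Sox100B-GFP peaks whose summit lay over 1 kb from every transcription start site (TSS) of a protein-coding gene, 386 had that summit inside a non-coding RNA gene or within 1 kb of the TSS of one. They were taken from the list of peaks that passed the authors' irreproducible discovery rate (IDR) threshold, which retains regions with similar ranks across replicates. The 3206 make up 56.4% of that list, called the IDR list here. The genes were those of the Ensembl BDGP6 annotation with the biotypes ncRNA, tRNA, snoRNA, snRNA, miRNA hairpin (pre_miRNA) or rRNA. The other 2820 distal peaks served as the comparison. Chromatin came from whole Drosophila melanogaster embryos of mixed sex collected at 6 to 16 h, from a transgenic line with GFP at the C terminus of Sox100B. The study has 3 biological replicates of this 1 group, so no condition, genotype or tissue was compared. Whole embryos mix all cell types, and a peak can come from any of them. The sample descriptions mention an input control, but the fields for antibody and assay give an immunoprecipitation against Sox100B, which is how the samples were read here. The control experiment was not analysed here. Each replicate has a list of 30000 regions and the pooled replicates another, which hold background as well as peaks by design. Read depth is unknown, so a count of 0 peaks says only that none passed the threshold in these lists.

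Sox100B belongs to the group E Sox factors, which bind DNA in the minor groove through an HMG box and take part in gonad development in the fly. Non-coding RNA genes differ widely in how they are made and used. RNA polymerase II transcribes the long non-coding RNAs (lncRNAs) and the primary transcripts from which miRNA hairpins are cut. RNA polymerase III makes tRNAs from a promoter that lies inside the gene, and most snoRNAs, which guide modification of ribosomal RNA, are processed out of introns of host transcripts. A Sox factor bound near such a gene can act on it, on a coding gene that shares the sequence, or on neither, and a peak map does not distinguish these cases. Binding maps carry no strand, so a peak in an lncRNA that lies in an intron of a coding gene was counted at both.

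For each biotype the strongest peak whose sequence is reported is shown first, as the summit with 100 bases on each side, so that the base composition and the presence or absence of a Sox core can be read directly. A further window, at lncRNA:CR44868, is the strongest of those whose sequence is given that holds a Sox core, here ACAAAG or ACAATG on either strand. Capitals mark that match. The windows lie at chrX:12751228-12751428 (lncRNA:Vinr), chr3L:3250105-3250305 (mir-282), chr3R:9353406-9353606 (snoRNA:Me18S-G1358a), chr3L:13213446-13213646 (tRNA:Leu-CAA-2-2) and chr2L:15912988-15913188 (lncRNA:CR44868). Sequences are the plus strand of the RefSeq copy of release 6 of the genome (dm6).
lncRNA:Vinr: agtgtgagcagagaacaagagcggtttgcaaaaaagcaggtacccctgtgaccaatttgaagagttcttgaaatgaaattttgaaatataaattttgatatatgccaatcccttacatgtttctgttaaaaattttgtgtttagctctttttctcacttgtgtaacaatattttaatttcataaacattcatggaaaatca
mir-282: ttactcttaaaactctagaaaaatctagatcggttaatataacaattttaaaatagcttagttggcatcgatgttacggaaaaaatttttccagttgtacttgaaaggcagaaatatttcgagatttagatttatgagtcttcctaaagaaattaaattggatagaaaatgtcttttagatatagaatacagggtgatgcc
snoRNA:Me18S-G1358a: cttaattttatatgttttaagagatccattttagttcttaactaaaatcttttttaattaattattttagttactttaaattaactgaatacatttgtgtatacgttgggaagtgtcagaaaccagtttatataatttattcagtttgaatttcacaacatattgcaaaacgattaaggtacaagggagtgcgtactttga
tRNA:Leu-CAA-2-2: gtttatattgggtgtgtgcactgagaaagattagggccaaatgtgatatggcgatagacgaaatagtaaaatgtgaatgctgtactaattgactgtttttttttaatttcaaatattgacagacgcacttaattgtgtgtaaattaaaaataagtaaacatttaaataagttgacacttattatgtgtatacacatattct
lncRNA:CR44868: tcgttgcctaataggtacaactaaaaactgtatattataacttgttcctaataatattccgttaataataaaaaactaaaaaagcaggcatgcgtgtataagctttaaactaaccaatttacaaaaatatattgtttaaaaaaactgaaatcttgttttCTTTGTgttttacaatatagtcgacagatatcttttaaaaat
The first 4 of these windows held no Sox core. Their GC contents were 30.8%, 28.9%, 25.4% and 28.9%.

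The miRNA hairpins reached by the peaks shown here are given by their mature RNAs from RefSeq, with the seed (bases 2 to 8), which pairs with target messages, in capitals. These are the 5 hairpins of highest peak signal and the pair, mir-4974 and mir-4962, whose hairpin itself held the summit.
mir-282-5p: uAGCCUCUacuaggcuuugucugu
mir-282-3p: aCAUAGCCuauaagagguuagg
mir-9377-5p: cGCUCUUUcucucuaucuggcc
mir-9377-3p: cUUGAUGGggagaaggagagg
mir-9378-5p: aGUGGAGUgagaccucgaguucgg
mir-9378-3p: gAACGGGAguuuccuccauugg
bantam-5p: cCGGUUUUcgauuugguuugacu
bantam-3p: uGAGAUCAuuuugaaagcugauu
mir-375-5p: aCUUGGGCcaagggaaugcaaacu
mir-375-3p: uUUGUUCGuuuggcuuaaguua
mir-4974-5p: aGAGAGUAuauugauuuuaggu
mir-4974-3p: uAUAAAAUauauauauuccuga
mir-4962-5p: uUUCCCUCucucuguuuacauuga
mir-4962-3p: gACGAUGUagagagugagggaga
Among all 26 mature RNAs of the 14 hairpins looked up in RefSeq, no seed occurred more than once.

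Non-coding RNA genes held 12.0% of the distal peaks (386 of 3206, exact binomial 95% interval 10.9 to 13.2%). The windows of the rule cover 6.41% of the distal sequence. Weak regions give the background for this share. They are the weakest entries of the pooled list over 500 bp from every IDR peak, equal in number to the IDR list, and 415 of the 4650 distal ones, or 8.92%, fell at such genes (8.12 to 9.78%). In the strongest regions of each replicate, again as many as the IDR list holds, the share was 12.2%, 12.4% and 12.2% in replicates 1, 2 and 3, a mean of 12.3% ± 0.134 (SD, n = 3), above the weak regions in every replicate. The pooled list holds the reads of every replicate, so these values are not independent of each other.

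Nearly all of the peaks stood at genes of the broad biotype ncRNA, which is mostly lncRNAs. There were 359 at ncRNA genes, 20 at miRNA hairpins, 12 at tRNA genes and 5 at snoRNA genes, with some peaks counted under more than 1 biotype, and 0 at snRNA and rRNA genes. Counted by gene, 302 non-coding RNA genes were reached: 260 of the 2333 ncRNA genes that have distal sequence in reach (11.1%, exact binomial 9.90 to 12.5%), 17 of 248 miRNA hairpins (6.85%, 4.04 to 10.7%), 18 of 275 tRNA genes (6.55%, 3.93 to 10.1%) and 7 of 253 snoRNA genes (2.77%, 1.12 to 5.62%). None of 31 snRNA genes (up to 11.2%) or 99 rRNA genes (up to 3.66%) was reached. Per Mb of distal sequence, IDR summits numbered 58.9 at ncRNA genes, 60.7 at hairpins, 41.7 at tRNA genes and 30.8 at snoRNA genes, against 28.3 in the rest of the distal sequence. Weak regions numbered 60.5, 51.6, 100.7, 49.2 and 42.5 per Mb in the same order. Weak regions are more often distal (81.8% of them), so the densities compare biotypes within a set. Relative to the rest of the distal sequence, IDR summits were denser at ncRNA genes and hairpins by more than weak regions were, and at tRNA genes by less. The counts at hairpins (20 and 17) and snoRNA genes (5 and 8) are small. In the replicates, ncRNA genes took 11.4% ± 0.158 of the distal summits, hairpins 0.585% ± 0.0576, tRNA genes 0.417% ± 0.0462 and snoRNA genes 0.181% ± 0.0415 (SD, n = 3), and snRNA and rRNA genes none in any of them.

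**Figure D1:**
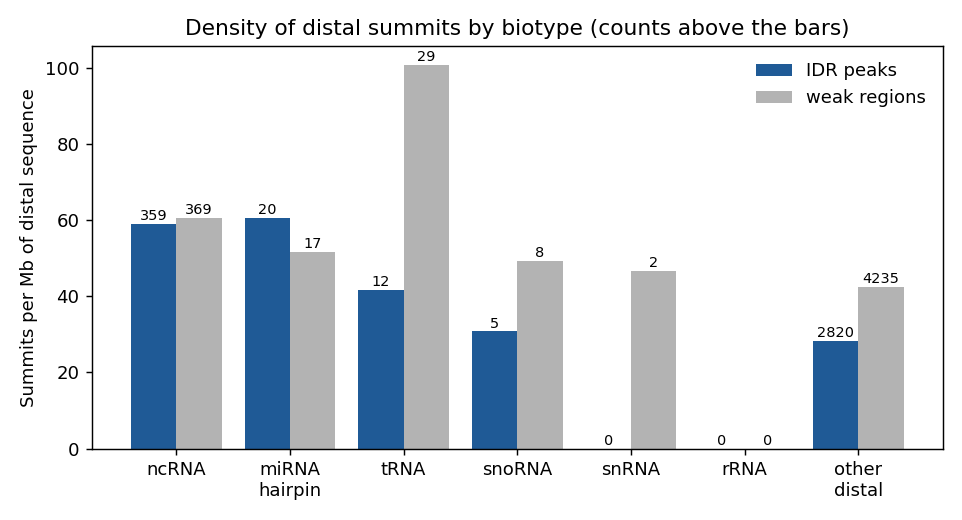
Summits per Mb of distal sequence (y axis) at genes of each biotype and in the rest of the distal sequence (x axis), for IDR peaks (blue) and weak regions (grey), with the number of summits above each bar. At tRNA genes there were 12 IDR summits and 29 weak ones, and at ncRNA genes 359 and 369.

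The top peak of the whole IDR list was 1 of these peaks. It spanned chrX:12750799-12751701, had a signal of 4635 and lay in an exon of lncRNA:Vinr, a fly lncRNA studied in antiviral immunity. Signals are on the peak caller's own scale, which is not stated, and serve only to order regions within a list. The region ranked 1, 2 and 1 in replicates 1, 2 and 3, with signals of 1262, 1972 and 1361. The neighbouring peak, in an exon of lncRNA:CR44619, had a signal of 1631 and ranks of 125, 156 and 161. The nearest coding TSS, that of CG4004, was 5011 bp from the top summit.

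Next in order came lncRNA:CR31840 on 2L, with the summit 4 bp from its TSS and a signal of 2801; its ranks were 15, 36 and 13. The peak 148 bp from lncRNA:CR44339 on 2R (signal 2654) ranked 39, 30 and 23, and the nearest coding TSS was that of the Polycomb group gene Psc, at 4225 bp. At lncRNA:CR44409, with the summit in an intron of Dif, an NF-kappa-B factor of the immune response, the signal was 2531 and the ranks were 38, 37 and 33. These 4 strongest peaks thus stood among the 40 strongest regions of every replicate. The peak at asRNA:CR45804, with the summit in an intron of the phosphoribosyl pyrophosphate synthetase gene Prps, followed with a signal of 1970 and ranks of 101, 76 and 88.

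Over the 15 strongest peaks the signals fell to 1357, and all 15 kept a rank under 300 in each replicate. Among them were lncRNA:CR43626 and lncRNA:CR31044, described with the miRNAs, and lncRNA:CR46035 in an intron of osa, a subunit gene of the Brahma chromatin remodelling complex (signal 1722). The pair lncRNA:CR44365 and lncRNA:CR44366 on 2R shared a peak of signal 1621. lncRNA:CR45643 lay 926 bp from a peak of 1542 whose nearest coding TSS was that of tara, and lncRNA:CR44810 held one of 1413 nearest to slbo, which encodes the fly C/EBP factor. The peaks at lncRNA:CR43287 (in an intron of the forkhead gene CHES-1-like), lncRNA:CR44357 and lncRNA:CR45595 (nearest to l(3)neo38) had 1411, 1395 and 1357. Most of these lncRNAs carry a CR number and have no function given in the annotation.

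Some of the strong peaks stood in groups. In an intron of beat-Ib, a gene of the Beat family of axon guidance proteins, 4 summits lay at the neighbouring lncRNA:CR44867 and lncRNA:CR44868, with signals of 1344, 1279, 1158 and 550. The first ranked 203, 254 and 298 in replicates 1, 2 and 3, the second 239, 268 and 341, and the third 376, 377 and 294, so each stood high in all of them. The fourth overlapped the third and drew on the same replicate regions. Near lncRNA:CR45352 on 2L, beside lncRNA:CR31840, 3 summits had signals of 1315, 695 and 587, and the strongest ranked 273, 292 and 219.

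By gene name, 339 of the peaks lay at genes named as lncRNAs and 21 at genes named as antisense RNAs (asRNAs). The median signal was 309 at the former and 292 at the latter. The strong regions of all 3 replicates covered 71.7% of the former (exact binomial 66.6 to 76.4%) and 13 of 21 of the latter (61.9%, 38.4 to 81.9%), so the intervals overlap. An intron or UTR of a coding gene held the summit at 12 of the 21 and at 121 of the 339.

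Of the 386 peaks, 208 had the summit inside a non-coding RNA gene and 178 lay outside but within 1 kb of a TSS. The summit fell in an exon of the non-coding gene at 102 peaks. At 149 peaks it lay in an intron of a protein-coding gene and at 2 in a 3′ UTR, while 235, or 60.9%, lay outside every protein-coding gene. Of the other distal peaks, 70.8% lay in a protein-coding gene, so the comparison below was repeated outside coding genes. 43 peaks were counted at more than 1 non-coding RNA gene, and 55 overlapped another IDR region (14.2%, against 12.7% of the other distal peaks).

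The strongest peak at a miRNA hairpin lay 817 bp upstream of mir-282, in an exon of its primary transcript gene lncRNA:CR43626 (chr3L:3249957-3250477). It had a signal of 1848 and ranked 118, 101 and 101 in replicates 1, 2 and 3, high in each. mir-9377 followed with a peak of 814 in an intron of Tis11, which encodes an mRNA decay factor, whose ranks of 553, 634 and 939 were spread more widely, and a second of 195. At mir-9378 the peaks had signals of 653 and 343. The growth-promoting bantam hairpin (mir-ban) had a summit 463 bp from its start with a signal of 593 and ranks of 953, 1255 and 1266. mir-375, the fly gene named after a miRNA of mammalian pancreatic islets, had peaks of 459 and 191, and the former ranked 2488 in replicate 1 but 1590 and 1591 in the others. At mir-8, the fly member of the miR-200 family, signals were 427 and 229. The hairpin itself held the summit at mir-4974 (signal 361) and mir-4962 (signal 303), and at none of the other hairpins. The remaining 8 peaks, at hairpins such as mir-2491, mir-308 and mir-985, had signals of 183 to 345.

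Host genes gave a further view of the miRNA loci; they were examined after the values had been seen. Of 37 ncRNA genes that contain a miRNA hairpin on their own strand, 14 had a distal IDR summit (37.8%, exact binomial 22.5 to 55.2%), against 246 of 2483 that contain none (9.91%, 8.76 to 11.2%). Genes without distal sequence in reach were not left out here. The counts take all 2520 ncRNA genes on the arms, of which 2333 have such sequence. Host genes are longer, with a median of 6436 bp against 701 bp. Among ncRNA genes over 2 kb long the shares were 14 of 34 (41.2%, 24.6 to 59.3%) and 62 of 302 (20.5%, 16.1 to 25.5%). The hosts among these were still longer, with a median of 7039 bp against 3469.5 bp. The bantam host lncRNA:CR43334 had 8 summits in 15.5 kb, with signals from 179 to 935. Its strongest ranked 516, 563 and 483 in the replicates, so all 3 placed it alike. That peak overlapped another IDR region, so the 8 summits do not mark 8 separate regions. lncRNA:CR31044, the host of mir-279 and mir-996, which block the formation of carbon dioxide-sensing neurons, had a peak of 1750 at 106 bp upstream of its TSS, with ranks of 152, 105 and 123. The mir-276a host lncRNA:CR46006 had 5 summits (strongest 848), the mir-8 host lncRNA:CR43650 had 4 (827), and the mir-277 and mir-34 host lncRNA:CR43459 had 2 (437). lncRNA:CR43836 with mir-31b had 2 (494). Weaker single peaks lay at the hosts of mir-10 (235), mir-184 (228), mir-275 (178) and the pair of mir-1002 and mir-968 (210). The other 23 hosts had no distal summit, including lncRNA:let7C, which carries mir-let7, mir-100 and mir-125, and the hosts of mir-1, mir-9a and mir-124.

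**Figure D2:**
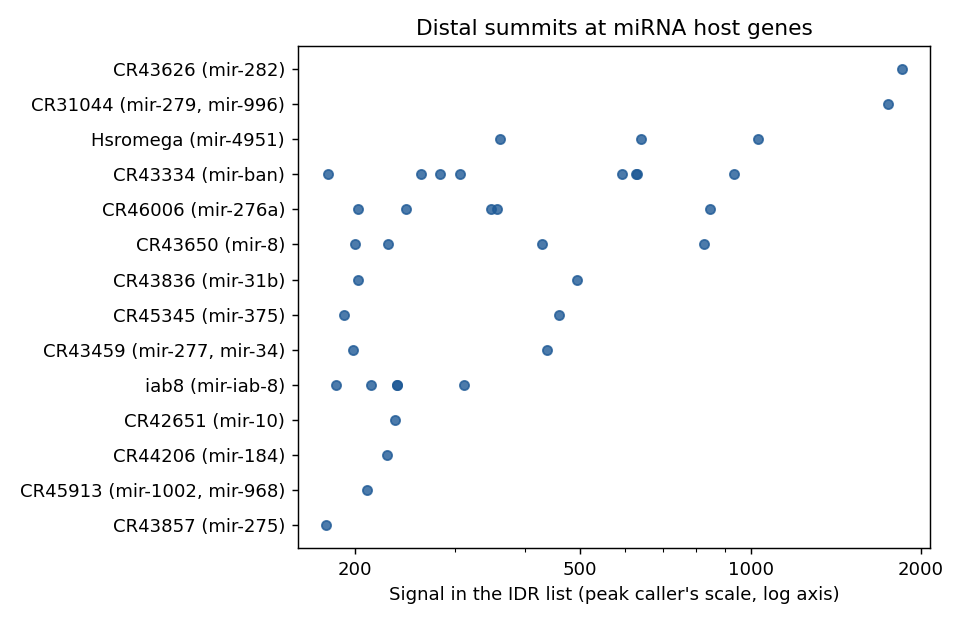
Signal in the IDR list (x axis, log scale, peak caller's scale) of each distal summit at the 14 miRNA host genes with at least 1 (y axis, hairpins in parentheses); each point is a peak. The hosts of mir-282 (1848) and of mir-279 and mir-996 (1750) had single strong peaks, and the bantam host had 8 from 179 to 935.

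Peaks at tRNA genes were few and mostly weak. No summit lay inside a tRNA gene, and the nearest tRNA start was 109 bp away. tRNA genes are short, 72 bp at tRNA:Glu-CTC-3-1, so little of the sequence within 1 kb of their starts lies inside them. A count of 0 inside among 12 peaks therefore says little. At 10 of the 12 the summit was upstream of the nearest tRNA start. Their median signal was 219, against 279 for the other distal peaks. None of the 12 was among the 1000 strongest IDR peaks, where 328 of the 2820 other distal peaks stood. The strongest, at tRNA:Arg-CCT-1-2 and tRNA:Arg-CCT-1-3 on 2R, had a signal of 334 and ranks of 3165, 3633 and 1773, which differed between replicates. tRNA:Leu-CAA-2-2 had 318 and ranks of 2333, 2614 and 5644, far lower in replicate 3 than in the others. tRNA:Glu-CTC-3-1 had 287, a peak shared by snoRNA:185, tRNA:Glu-CTC-2-1 and a pair of tRNA:Glu-TTC-1 genes had 261, and tRNA:Met-CAT-1-2 had 259. Of the 12, 5 were found among the strongest regions of all 3 replicates (41.7%, exact binomial 15.2 to 72.3%). tRNA genes are present in near-identical copies, and how reads that map to several copies were treated is not given in the sources used here, so the counts at tRNA, snRNA and rRNA genes are uncertain.

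At snoRNA genes the strongest peak was 762 bp upstream of snoRNA:Me18S-G1358a, a guide for methylation of 18S rRNA, in an intron of drn. Its signal was 906 and its ranks were 419, 559 and 745. The other 4 were at snoRNA:abba-a in an intron of tn (353), at a cluster of snoRNA:Or-ACA6, snoRNA:Or-CD13 and scaRNA:MeU1b-A234 in an intron of egr, which encodes the fly TNF ligand (285), at snoRNA:185 (261) and inside snoRNA:Psi18S-176 (258). The last had no region in the list of replicate 1 and ranked 2923 and 5234 in replicates 2 and 3. snoRNA:Or-ACA9 also has a snoRNA name, but its biotype is ncRNA, so its peak (290) was counted there. None of the 7 snoRNA host genes looked up from the Uhg series had a distal summit, although Uhg2, Uhg4 and Uhg8 had IDR summits within 1 kb of a coding TSS, the strongest with a signal of 980 at Uhg4. The starts of Uhg1, Uhg2, Uhg4, Uhg5 and Uhg8 lie within 1 kb of a coding TSS. A summit at those starts could not count as distal, so the absence says little.

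Among lncRNAs of known function the picture was mixed. lncRNA:Hsromega, the heat shock RNA that organises nuclear omega speckles, had 3 summits, with signals of 1031, 640 and 361. The strongest lay in an exon, 162 bp downstream of a TSS, and ranked 503, 335 and 631 in the replicates, while that of 640 ranked 780, 1191 and 1100. The third overlapped the first and was covered by the same replicate regions. lncRNA:bxd, in the regulatory region of Ubx, had 3 summits (411, 278 and 180), the strongest with ranks of 3713, 1738 and 1931. lncRNA:iab8, the long transcript of the bithorax complex that represses abd-A, had 5, from 185 to 312, whereas lncRNA:iab4 and the hairpins mir-iab-4 and mir-iab-8 had none. All 5 at lncRNA:iab8 also lay in a protein-coding gene. lncRNA:acal, a gene of dorsal closure, and lncRNA:yar, a gene linked to sleep, had 1 peak each (284 and 214). No IDR summit was found at lncRNA:roX1 or lncRNA:roX2, the RNAs of dosage compensation, nor at lncRNA:sphinx, lncRNA:CRG, the 7SL genes, RNaseP:RNA or RNaseMRP:RNA. snRNA:7SKa, whose RNA restrains the elongation factor P-TEFb, had 1 IDR summit within 1 kb of a coding TSS (335), which the distance rule leaves out. By list, distal summits were found at 0 of 2 dosage compensation RNAs, 2 of 7 Hox complex RNAs and 1 of 7 abundant or stress RNAs. They were found at 3 of 6 genes listed as developmental lncRNAs: lncRNA:acal, lncRNA:yar and lncRNA:Vinr, described above by its work in antiviral immunity. Of 25 developmental miRNAs 4 had one (mir-8, mir-282, mir-375 and bantam). Of all non-coding RNA genes in reach, 302 of 3239 or 9.32% had one. The lists, lncRNA:Vinr included, were chosen with earlier results of these data known, so their shares are no test against that value.

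A few very long lncRNA genes held many summits. lncRNA:CR44357, which spans 239347 bp of X, had 18, from 181 to 1395, or 0.752 per 10 kb, and 16 of them lay in introns of protein-coding genes. lncRNA:CR44999 on X had 9 in 149629 bp, of which 7 lay in a protein-coding gene. lncRNA:CR45939 on 3L had 8 in 29227 bp, and all 8 lay in a protein-coding gene. lncRNA:CR32773 on X had 7 in 223710 bp, or 0.313 per 10 kb. In the rest of the distal sequence there were 28.3 per Mb of distal bases. The values per 10 kb divide by the whole gene length, so they are not directly comparable with it. The bantam host was denser, with 5.17 per 10 kb. Of ncRNA genes over 20 kb long, 18 of 26 had at least 1 summit (69.2%, exact binomial 48.2 to 85.7%). The share was 32.6% of 89 genes of 5 to 20 kb (23.0 to 43.3%). Below 5 kb it did not rise with length beyond the intervals: 8.81% of 704 genes of 1 to 5 kb (6.82 to 11.1%), 9.55% of 974 genes of 500 bp to 1 kb (7.78 to 11.6%) and 7.98% of 727 genes of at most 500 bp (6.11 to 10.2%). A longer gene offers more sequence in which a summit can fall, and these shares were not adjusted for that. They are shares of all ncRNA genes on the arms, including those without distal sequence in reach. Most genes had a single summit (231 of 302), 48 had 2 and 23 had 3 or more.

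The peaks at non-coding RNA genes were somewhat stronger than the other distal peaks. Their median signal was 305 (quartiles 223 and 498), against 279 (212 and 421), which placed the median at percentile 49.7 of the IDR list against 43.6. Among the 500 strongest IDR peaks were 30 of the 386 (7.77%) and 137 of the other 2820 (4.86%). With the distal peaks cut by signal into 5 parts of nearly equal size, the share at non-coding RNA genes was 15.3% in the strongest (exact binomial 12.6 to 18.3%) and 10.6% in the weakest (8.33 to 13.3%). Outside protein-coding genes the medians were 301 and 269. Peaks within 1 kb of coding TSSs were stronger than either, with a median of 352.

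**Figure D3:**
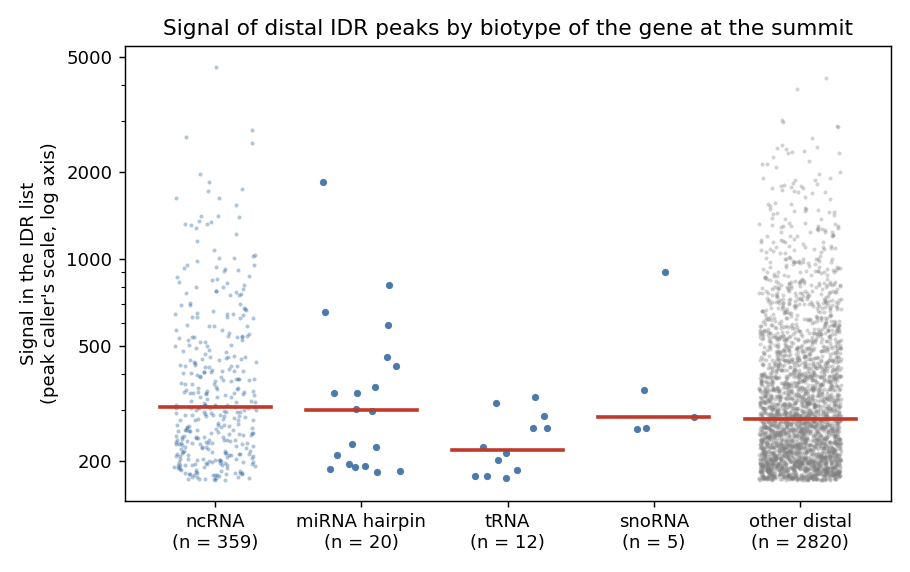
Signal in the IDR list (y axis, log scale, peak caller's scale) of each distal peak, by the biotype of the gene at its summit (x axis); each point is a peak and red lines are medians. The tRNA peaks have a median of 219 and none exceeds 334, while the medians at ncRNA genes (307) and hairpins (301) lie above that of the other distal peaks (279).

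The same order was seen in every replicate. The IDR list and its signal came from these same replicates, so this agreement is not independent evidence. The regions that overlapped the 386 peaks had median ranks of 2824, 2821 and 2945 of 30000 in replicates 1, 2 and 3, and those at the other distal peaks 3173, 3266 and 3409. Expressed as percentiles of the replicate list, the difference was 1.16, 1.48 and 1.55 points, with a mean of 1.40 ± 0.205 (SD, n = 3). All 3 replicates had the same sign, and the exact two-sided sign-flip permutation test gave p = 0.25, the smallest that 3 replicates allow. By biotype, the mean of the 3 median ranks was 2784 ± 87.4 at ncRNA genes, 2933 ± 172 at hairpins, 3261 ± 626 at snoRNA genes and 5101 ± 282 at tRNA genes, against 3283 ± 119 at the other distal peaks (SD, n = 3). These SDs are over replicate readings of the same peaks, not over the peaks of a biotype, so they do not show whether biotypes differ. The tRNA peaks had the weakest median rank in each replicate. The hairpin medians were 3097.5, 2754.5 and 2946.5, and those at ncRNA genes 2731.5, 2736 and 2885.

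**Figure D4:**
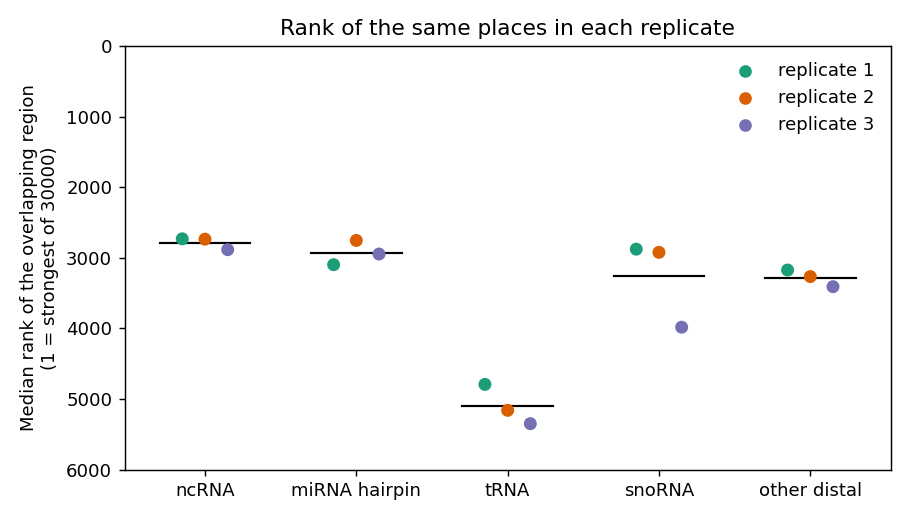
Median rank of the overlapping region (y axis, 1 is the strongest of 30000) in replicates 1, 2 and 3 (coloured points, with their mean as a line) for distal IDR peaks at each biotype and for the other distal peaks (x axis). Ranks at ncRNA genes lie between 2731.5 and 2885, and those at tRNA genes between 4793 and 5348.5.

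Most of the peaks were found again in each replicate. Strong regions of every replicate, as many per list as the IDR list holds, overlapped 271 of the 386 (70.2%, exact binomial 65.4 to 74.7%), and the corresponding background in the other distal peaks was 65.9% (1859 of 2820, 64.1 to 67.7%). The regions of 2 replicates overlapped 66, those of 1 overlapped 44 and those of none 5. The share was 71.3% at ncRNA genes, 60.0% at hairpins (12 of 20, 36.1 to 80.9%) and 4 of 5 at snoRNA genes. Peaks in an exon of the non-coding gene were covered at 79 of 102 (77.5%, 68.1 to 85.1%). The IDR list was itself made from these replicates.

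The density of distal IDR summits was highest just upstream of the non-coding TSSs, and further high bins lay on both sides of them. In the 250 bp upstream, 60 distal IDR summits fell, or 102 per Mb of distal sequence, against 24 or 40.3 per Mb in the 250 bp downstream. Weak regions gave 61.4 and 45.3 per Mb in these bins. From 250 to 500 bp upstream there were 37 IDR summits, or 73.4 per Mb, below the 83.3 per Mb of weak regions. The bin from 500 to 750 bp downstream held 44 IDR summits, or 87.0 per Mb, and that from 1000 to 1250 bp downstream held 33, or 68.6 per Mb, against 69.2 and 41.6 per Mb for weak regions. Within 200 bp of a TSS the density of IDR summits was 66.0 per Mb and that of weak regions 55.7, from 200 bp to 1 kb the values were 64.3 and 62.1, and beyond 5 kb they were 27.1 and 40.9. Within 1 kb, 138 of the 386 peaks lay upstream and 130 downstream. The median signal was 294 within 200 bp of a TSS (64 peaks), 325 from there to 1 kb (204 peaks) and 283 deeper in the gene (118 peaks). Within 200 bp of a coding TSS the median was 366 (1016 peaks).

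**Figure D5:**
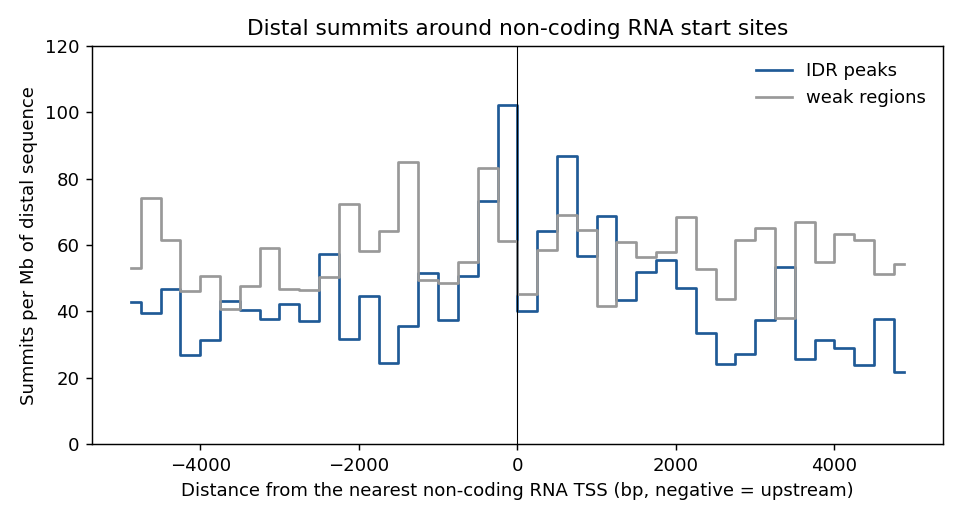
Distal summits per Mb of distal sequence (y axis) by distance from the nearest non-coding RNA TSS (x axis, in bp, 250 bp bins, negative is upstream), for IDR peaks (blue) and weak regions (grey). The highest bin of the IDR peaks is the one just upstream of the TSS, with 102 per Mb, and the next highest lies 500 to 750 bp downstream, with 87.0 per Mb.

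Over all signals, fewer of these peaks than of the other distal peaks had a Sox core within 100 bp of the summit, and the size of the difference varied with window and signal. ACAAAG or ACAATG, on either strand, was present at 83 of 386 (21.5%, exact binomial 17.5 to 25.9%) and at 752 of 2820 others (26.7%, 25.0 to 28.3%). These intervals overlap. In the whole IDR list the share was 24.9%, and at distal weak regions it was 24.1% at non-coding RNA genes and 25.3% elsewhere. In the strongest regions of the replicates the shares were 21.2% ± 0.827 and 26.6% ± 0.539, and the difference was −5.49 ± 0.387 percentage points, from −5.73 to −5.05 (SD, n = 3). The difference in the IDR list was −5.16 points within 100 bp of the summit, −1.78 within 50 bp and −9.89 in the 2841 strongest IDR peaks. Among the weakest of the 5 parts of the distal peaks the order was the other way, with overlapping intervals: the core was at 36.8% of peaks at non-coding RNA genes (25.4 to 49.3%) and 26.5% of others (23.0 to 30.3%). The replicates mark largely the same places, so their agreement does not add independent sequences. Of the 15 strongest peaks at non-coding RNA genes 1 held a Sox core, and of the 15 strongest other distal peaks 6 did. Among the 50 strongest of each kind the counts were 7 and 15. These sets were not matched for signal: the 15 at non-coding RNA genes reached down to 1357 and the 15 others to 2319. By biotype the core was present at 20.6% of peaks at ncRNA genes, 6 of 20 at hairpins, 3 of 12 at tRNA genes and 1 of 5 at snoRNA genes.

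For each of the other patterns, searched on both strands in the same windows, the share at the other distal peaks lay inside the exact binomial interval of the share at non-coding RNA genes. GATAA, the core bound by GATA factors, was present at 47.2% (42.1 to 52.3%) against 42.6% of other distal peaks and 37.6% of distal weak regions elsewhere. This difference of 4.56 points turned to −2.02 in the 2841 strongest IDR peaks, and in the replicates it was 2.09 ± 1.85 (SD, n = 3), with a lowest value of −0.016. GAGAG, a part of GAGA factor sites, was present at 19.7% against 19.5%, and TAATTA, a homeodomain core, at 19.9% against 20.6%. CAGCTG, an E-box, was present at 4.15% against 5.78%, and the repeat CACACACA at 2.59% against 3.05%. TATCGATA, the DREF site of many housekeeping promoters, was present at 1 peak (0.259%) and at 9 others (0.319%), but at 1.79% of all IDR peaks. GGTTCGA, the core of the B box inside tRNA genes, was present at 5 peaks (1.30%), none of them a tRNA peak, and at 0.993% of the others. The mean GC content of the windows was 33.3% ± 7.22 (SD across regions) against 33.4% ± 6.77, a difference of −0.172 percentage points, which is within the SD of 0.272 that the same difference has over the replicates.

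By chromosome arm, 79 peaks lay on 2L, 61 on 2R, 77 on 3L, 86 on 3R, 83 on X and 0 on 4. X held 21.5% of them and 18.7% of the other distal peaks, and 3L held 19.9% and 25.9%. Per Mb of distal sequence at non-coding RNA genes there were 44.4 peaks on X and 59.3 to 66.7 on the large autosomal arms. X holds 27.4% of that sequence, and very long genes such as lncRNA:CR44357 (239347 bp) and lncRNA:CR32773 (223710 bp) lie on it. The density of the other distal peaks by arm is not given here, so the lower value cannot be assigned to non-coding RNA genes. At the edges of the rule, the peaks nearest to a coding TSS were those of lncRNA:CR45793 at 1006 bp (signal 1221) and lncRNA:CR44760 at 1013 bp (244), and the nearest left out lay 984 bp away at tRNA:Pro-TGG-1-1 and tRNA:Val-CAC-1-1 (223). The farthest peaks kept by distance to a non-coding TSS lay at 995 bp (338 and 259), and the first left out lay at 1005 and 1006 bp (188 and 502). The coding distance leaves out 259 IDR summits at non-coding RNA genes.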

How the data were processed

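Chromatin immunoprecipitation followed by sequencing was done in 3 biological replicates, with chromatin sonicated to 200 to 800 bp per the labels. The authors deposited 5 region lists on dm6, and per the file headers the 4 lists of 30000 hold peaks and background as input for IDR. The deposited signal is a score of the peak caller, and the deposited q-value of each region is given as −log10. For the aligner, the peak caller, the IDR threshold and the read depth nothing is stated in the sources used. From these lists, summits (start plus the deposited offset) were assigned to genes with Python 3.11.15, NumPy 2.4.6 and SciPy 1.17.1; matplotlib 3.10.9 drew the figures. All annotated TSSs counted, pseudogenes and transposable elements were left out, miRNA hairpins were taken by transcript biotype, and an overlap was 1 bp or more. Figures of density per Mb divide by the bases over 1 kb from coding TSSs, and those per 10 kb by the whole length of the gene. Intervals are exact binomial 95% intervals over regions or genes and cover counting alone; neighbouring regions are not independent. Code was tested on simulated data. The rule named the 15 peaks of highest signal, up to 6 per rarer biotype (5 where more) and listed genes of known function, of which Uhg6 had no match. Genes with most summits, miRNA host genes and members outside this rule were added after values were seen. Members and lists were chosen with earlier results of these data known. Sequences from 2R are not reported here.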

Additional observations from a re-analysis of the deposited data

How the results depend on the processing

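The share of distal peaks at non-coding RNA genes was 9.48% with non-coding TSSs within 500 bp, 16.4% within 2000 bp and 6.49% with summits inside genes alone, and the share of weak regions moved with it, to 6.95%, 13.0% and 5.12%. In the 2841 strongest IDR peaks the share was 13.7%. It was 12.5 to 12.7% when the peaks had to be covered without 1 of the replicates. The 302 genes reached became 130 with summits inside genes alone. The median percentile difference of 6.13 points became 7.83 outside coding genes and 7.27 at over 2000 bp from coding TSSs. The share overlapped in all 3 replicates was 46.1% with an overlap of 50% of both regions and 38.9% with the strongest 2841 regions (43.0% and 32.5% of the other distal peaks), and 74.1 to 78.0% leaving out 1 replicate. The replicate rank difference was 1.32 to 1.51 percentile points leaving out 1 replicate. In those 2841 peaks the difference in Sox core share went from −5.16 to −9.89 percentage points, and within 50 bp of the summit it was −1.78. In the 2841 peaks the GATAA difference turned from 4.56 to −2.02 points. The cause of these shifts was not tested. No paired analysis was possible because all 3 samples belong to 1 group, which leaves no groups of samples to pair; the rank difference between kinds of peak was taken within each replicate. Read depth is unknown, and a rank test over 3 replicates cannot go below 0.25.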

Other observations

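The Sox core share at non-coding RNA genes was not even across signal. With all distal peaks ordered by signal and cut into 5 parts of nearly equal size, 16 of 98 peaks at non-coding RNA genes held the core in the strongest part (16.3%, exact binomial 9.63 to 25.2%) and 25 of 68 in the weakest (36.8%, 25.4 to 49.3%). The other distal peaks held it at 26.5% in both. The parts between gave 15.2%, 21.4% and 21.1% at non-coding RNA genes, against 25.4%, 27.3% and 27.5%. These parts were chosen after the values had been seen.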
